A study of Homo sapiens with 12 samples.

Results

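The genes described here encode the core proteins of the spliceosome: the Sm and LSm ring proteins, the proteins specific to the U1, U2 and U5 particles and to the minor spliceosome, the U2AF pair, the SF3A and SF3B subunits and the PRPF family. Members were chosen by a rule on symbols (SNRP with a letter from A to G, SNRNP with a number, LSM1 to LSM8, SF3A, SF3B, PRPF, U2AF1 and U2AF2) that takes in no measured value. The rule found 50 genes of the 59050 listed, and all 50 enter the counts and medians below. They fall into 8 families, and 15 small ring proteins (7 Sm, 8 LSm) are set against 22 SF3 and PRPF proteins, most of which are large.

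The study compared wild-type cells of HUES8, an established human embryonic stem cell line (ESC), with neural progenitor cells made from the same line (NPC). NPC were collected after 7 days of neural induction with LDN193189 at 0.05 uM, a blocker of BMP receptors, and SB431542 at 2.5 uM, a blocker of Nodal and activin receptors, of which SB431542 was left out over the last 2 days. ESC were kept in mTeSR1 medium. Each state was measured in 3 libraries of total RNA depleted of ribosomal RNA and 3 libraries of ribosome-bound RNA, 12 libraries in all. All came from a single line, and the labels do not say whether replicates were separate cultures, so p-values measure only the spread between these libraries, which may be technical.

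The spliceosome removes introns from pre-mRNA. Each of its small nuclear ribonucleoproteins (snRNPs) carries a ring of Sm proteins around its RNA, except U6, which carries the related LSm ring. U1 recognises the 5′ splice site, U2AF and the U2 particle with SF3A and SF3B recognise the 3′ splice site and the branch point, and the U4/U6.U5 tri-snRNP with its PRPF proteins brings in the catalytic core. The proteins are needed in nearly every cell type.

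Promoter sequences were available from RefSeq (build GRCh38.p14) for 41 of the 50 members, as windows of 300 bases with 250 before and 50 after a start given for the gene. For some members, among them LSM5, PRPF40B, SNRPG and SNRPE, that start lay inside the listed gene and not at its outer end. The letters CCGGAA, a core recognised by ETS factors, stood on either strand in 24 of the 41 windows (58.5%), against 17.6% of all 27305 promoters and 22.9% of 15843 promoters of protein-coding genes. It stood in 7 of 12 windows of small ring genes and in 11 of 17 windows of SF3 and PRPF genes. Over the 100 bases before the start the shares for CCGGAA were 43.9% of members, 9.15% of all promoters and 12.2% of protein-coding promoters. For CCAAT they were 34.1%, 18.7% and 21%. In the windows of 300 bases CCAAT stood in 43.9% of members and 36.4% of protein-coding promoters, so the shares were closer there. TATAAA stood in 2.44% of members and 9.63% of protein-coding promoters in these windows, and GGGCGG in 63.4% and 58.5%. Motifs were searched on both strands and counted independently of each other, so that a window can hold several and matches may overlap. A match describes letters only, and no binding was measured.

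The 100 bases before the start are printed for 8 members, with capitals marking CCGGAA or CCAAT on either strand (TTCCGG and ATTGG are the same motifs read on the other strand). The first group was among the most reduced on ribosomes in NPC. SNRPB lies at chr20:2470790-2470889 (minus strand), SNRPB2 at chr20:16729926-16730025 (plus strand), SNRPC at chr6:34757405-34757504 (plus strand) and SF3B5 at chr6:144095574-144095673 (minus strand).
SNRPB: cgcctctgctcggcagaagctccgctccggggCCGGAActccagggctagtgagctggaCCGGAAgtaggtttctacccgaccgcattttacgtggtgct
SNRPB2: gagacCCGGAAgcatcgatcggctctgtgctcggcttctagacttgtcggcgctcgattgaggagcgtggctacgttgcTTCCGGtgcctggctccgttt
SNRPC: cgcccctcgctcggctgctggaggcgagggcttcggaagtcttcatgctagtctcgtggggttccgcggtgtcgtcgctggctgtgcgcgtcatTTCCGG
SF3B5: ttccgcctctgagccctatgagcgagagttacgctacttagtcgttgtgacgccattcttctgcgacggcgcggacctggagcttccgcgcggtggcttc
The second group was higher on ribosomes in NPC. SF3A2 lies at chr19:2236724-2236823 (plus strand), SNRNP25 at chr16:53728-53827 (plus strand), SNRNP27 at chr2:69893856-69893955 (plus strand) and PRPF8 at chr17:1684868-1684967 (minus strand).
SF3A2: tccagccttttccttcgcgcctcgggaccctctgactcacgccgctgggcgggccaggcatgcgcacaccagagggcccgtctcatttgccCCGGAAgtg
SNRNP25: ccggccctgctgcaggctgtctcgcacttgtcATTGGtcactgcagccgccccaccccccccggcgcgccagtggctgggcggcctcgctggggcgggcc
SNRNP27: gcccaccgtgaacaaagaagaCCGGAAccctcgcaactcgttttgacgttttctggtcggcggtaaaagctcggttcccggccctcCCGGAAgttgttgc
PRPF8: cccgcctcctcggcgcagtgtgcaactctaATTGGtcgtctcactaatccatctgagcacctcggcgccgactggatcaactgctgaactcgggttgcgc
CCGGAA stood in the windows of SNRPB, SNRPB2 and SNRPC from the first group and of SF3A2 and SNRNP27 from the second. The windows of SNRNP25 and PRPF8 held CCAAT, and that of SF3B5 held neither.

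Total counts were 19529738 to 35117370 per RNA library and 2422756 to 4451196 per ribosome-bound library. Levels are given as CPM, the counts after scaling each library to the same size. A count of 0 allows a true level of up to 3 counts, equal to 0.0838 to 0.153 CPM in RNA and 0.679 to 1.29 CPM in ribosome-bound libraries, for counting error only. Summed pluripotency markers (POU5F1, NANOG, TDGF1, DNMT3B) were 4604 to 5729 CPM in ESC RNA and 425 to 443 CPM in NPC RNA. Neural progenitor markers (PAX6, SOX1, OTX2, LHX2) summed to 11.6 to 13.6 and 177 to 185 CPM, with LHX2 at a mean of only 1.29 CPM in NPC. Of the neural crest markers SOX10, TFAP2B and FOXD3, the first and the second were higher in NPC and none was at 0; they summed to 8.22 to 17.2 CPM in ESC and 75.1 to 76.9 CPM in NPC, mostly from TFAP2B. Mesoderm and endoderm markers (4, none at 0: TBXT, MIXL1, SOX17, FOXA2) summed to 5.97 to 8.57 CPM in ESC RNA and 0.140 to 0.300 CPM in NPC RNA. On ribosomes they summed to 181 to 248.5 CPM in ESC, mostly from MIXL1 (mean 172 CPM), and 0.837 to 3.53 CPM in NPC. Neuron and glia markers (3 each, none at 0) summed to at most 15.9 and 3.52 CPM in any RNA library. In ribosome-bound libraries they reached 15.1 CPM (neuron, in ESC) and 19.2 CPM (glia, in NPC). What part such cells have in the member results was not tested, and in bulk samples fewer cells of a type cannot be told apart from less RNA per cell.

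One ribosome-bound library, ESC replicate 2, stood apart from the other ESC libraries along the line between small and large members. Its correlation with them over all tested genes was 0.927 and 0.940, where they correlated at 0.976 with each other, and it was the shallowest library. Relative to the mean of the other pair, the small ring genes were shifted by 0.47 on the log2 scale in the median (13 of 15 above), and the SF3 and PRPF genes by -0.83 (18 of 22 below), with all tested genes at 0.04. SNRNP200 was 5.72-fold lower there, SF3B1 4.73-fold, PRPF3 3.79-fold, PRPF6 3.64-fold and SF3B3 3.44-fold. The 20 tested hnRNP genes all lay below as well, at a median of -0.91, so the shift was not limited to the members.

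**Figure D1:**
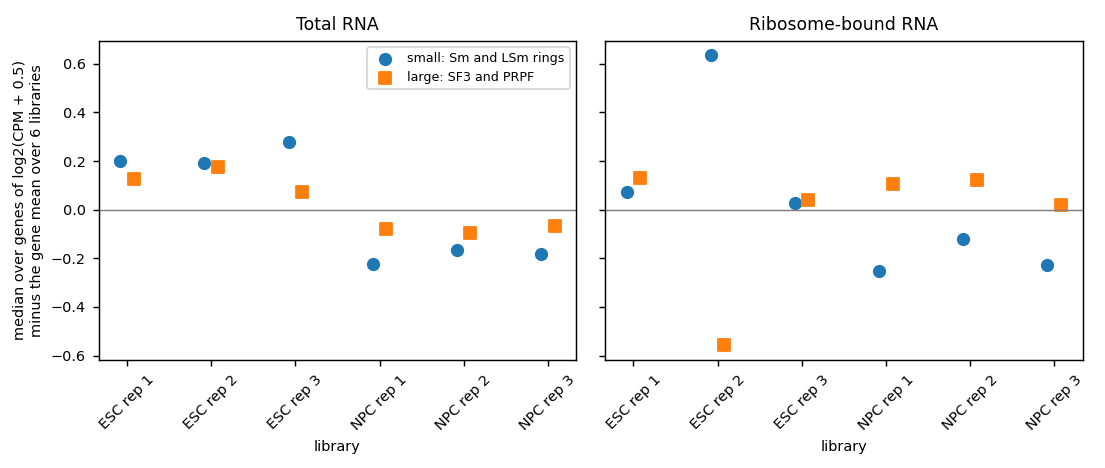
Median over genes of the centred log2 CPM in each library (vertical axis, log2 units; each gene minus its mean over the 6 libraries of its assay), for the 15 small ring genes (circles) and the 22 SF3 and PRPF genes (squares), with no error bars. In ribosome-bound RNA, ESC replicate 2 lies at 0.64 for the small and -0.56 for the large genes, while its sister libraries lie between 0.03 and 0.13.

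The plot of library medians shows the same in levels. The small minus large difference was -0.06, 1.19 and -0.01 in the ribosome-bound ESC libraries and -0.36, -0.24 and -0.24 in NPC. In total RNA it was 0.07, 0.02 and 0.20 in ESC and -0.14, -0.07 and -0.11 in NPC. Groups did not overlap in either assay, but the ESC to NPC step on ribosomes was small apart from replicate 2. Among total RNA libraries, ESC replicate 3 stood apart, with correlations of 0.980 and 0.976 with libraries that correlated at 0.996. Several members were low in it (SF3B5, LSM7, LSM4, SF3A2, U2AF2). Others were high, among them SNRPD1 and SNRPB2. Relative to the mean of the other pair, the small ring genes were shifted by 0.13 in the median (10 of 15 above). The SF3 and PRPF genes were shifted by 0.01 (11 above, 11 below). Counts of calls over all members are therefore given with and without these libraries, and the members whose calls change are named. Genes and lists outside the members are given with all libraries only.

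In total RNA all 50 members passed the filter on low counts, and edgeR's quasi-likelihood test (Benjamini-Hochberg adjustment over all genes tested, threshold 0.05) called 4 higher and 17 lower in NPC. Changes below are log2 fold changes of NPC over ESC with their standard error after ±, and every adjusted p comes from this test. Over all 18631 genes tested, 26.4% were called higher and 26.2% lower (52.6% in either direction), so the members' rises were fewer than the background share and the falls somewhat above it. The median member changed by -0.22 on the log2 scale, where the median of all genes was 0.03. The labels give replicate numbers but do not say whether libraries were paired, and the main test takes no pairing into account. With the replicate number as a block 2 members were higher and 18 lower. Without ESC replicate 3 the counts were 9 higher and 28 lower, and over all genes 34.9% and 34.7%. The members added by leaving it out were SNRPA, SNRNP70, U2AF1, SF3B1 and SNRNP48 (higher) and SNRPB, SNRPD2, LSM4, LSM7, U2AF2, SF3B2, SF3B5, SNRNP25, PRPF6, PRPF8 and PRPF19 (lower). Every NPC library lay above every ESC library for 5 members and below for 19, against 32.9% and 29.9% of all genes.

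On ribosomes 49 members were tested, since U2AF1 had no counts there. A total of 8 were higher and 14 lower, against 31.6% and 30.3% (61.8% in either direction) of the 12250 genes tested, and falls were thus near the background share and rises under it. Libraries of the states did not overlap for 12 members with NPC above and 16 with NPC below, against 35.0% and 32.1% of all genes. Without ESC replicate 2, 12 members were higher and 18 lower, with background shares of 34.8% and 33.3%, and the added calls were LSM4, LSM5, SNRNP70 and SNRNP200 (higher) and SNRPA, SF3A3, SF3B1 and SF3B3 (lower). The largest falls (SNRPB, SF3B5, SNRPB2, LSM1, SNRPC, SNRPD2) were all between -1.54 and -2.04 on the log2 scale, and the largest rises that are described here (PRPF3, SF3A2, SNRNP25) between 1.23 and 1.44.

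Translational efficiency, here the ribosome-bound level over that in total RNA, was tested in a single model of all 12 libraries through the assay by state interaction, and is called the ratio below. It was higher in NPC for 7 of 49 members and lower for 9, against 22.6% and 19.7% (42.3% in either direction) of 11866 genes. The ratio is relative, because each library is scaled to its own total. Without ribosome-bound ESC replicate 2 the counts were 11 and 15 (24.1% and 19.9% of all genes), with LSM5, PRPF3, PRPF4B and PRPF6 added as higher and SNRPA1, U2AF2, SF3B1, SF3B3, SF3B4 and PRPF19 as lower. Without RNA ESC replicate 3 they were 9 and 11, with SNRNP27 and PRPF6 added as higher and SNRPA1 and SF3B6 as lower. Over all genes 5905 were then called in either direction, against 5022 with all libraries. Without both libraries that stood apart the counts were 16 and 17 (29.5% and 29.3%). Beyond the added calls named above, LSM4, SF3A1, SF3B2 and SNRNP200 were then higher and PRPF4 was lower. Calls of SNRPB, SNRPD2, LSM1, SNRPC, SNRPB2, SF3B5 and SNRNP40 (lower) and of SNRNP25 (higher) held in all 20 other fits that were run.

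**Figure D2:**
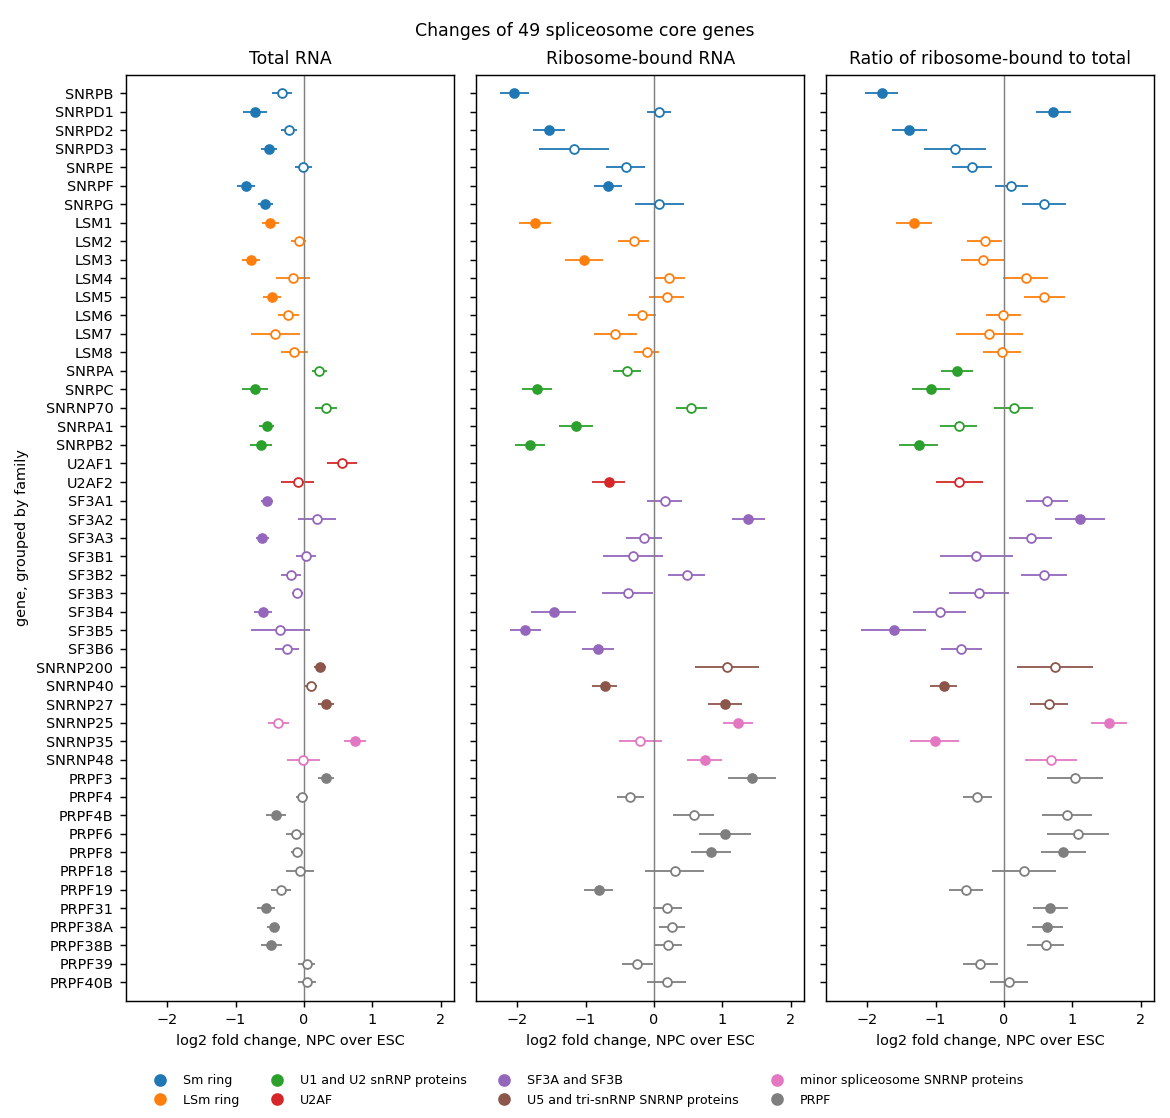
Log2 fold change of NPC over ESC (horizontal axes) for 49 members in total RNA, ribosome-bound RNA and the ratio of the 2, grouped by family in colour; bars are the standard error and filled points passed an adjusted p of 0.05. SNRPB at the top moves from -0.32 in total RNA to -2.04 on ribosomes, and the PRPF genes at the bottom lie mostly right of 0 on ribosomes.

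The Sm ring consists of 7 proteins that load together onto the snRNAs. In total RNA all 7 had negative fold changes and 4 fell (SNRPD1, SNRPD3, SNRPF, SNRPG). Of all 18631 genes tested in RNA, 8980 had negative fold changes. SNRPE was close to no change (-0.01, and 0.01 without RNA ESC replicate 3). On ribosomes 3 fell (SNRPB, SNRPD2, SNRPF) and none rose. Of all tested genes 26.4% rose and 26.2% fell in RNA, and 31.6% and 30.3% on ribosomes. SNRPB, which encodes SmB and SmB′, stood at 425, 548 and 489 CPM in ESC and 109, 115 and 131 CPM in NPC on ribosomes. In total RNA it measured 283, 308 and 208 CPM in ESC and 211, 225 and 203 CPM in NPC. The ribosome-bound groups were far apart while those of total RNA overlapped. Its ribosome-bound level was 4.12-fold lower in NPC (log2 fold change -2.04 ± 0.21 SE, adjusted p = 8.22e-06), total RNA differed by -0.32 ± 0.15 without passing (adjusted p = 0.1004), and the ratio fell by 1.79 ± 0.24 on the log2 scale (adjusted p = 4.28e-05), the largest fall of any member. Without RNA ESC replicate 3, its lowest ESC library in total RNA, the RNA change passed (-0.47 ± 0.06, adjusted p = 2.77e-09) and the ratio changed by -1.65.

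SNRPD2 (SmD2) also fell on ribosomes, with 706, 1013 and 685 CPM in ESC and 259, 255 and 313 CPM in NPC on ribosomes. In total RNA it measured 238, 274 and 215 CPM in ESC and 214, 214 and 198 CPM in NPC. Its ribosome-bound groups were far apart, with ESC replicate 2 the highest library, and its RNA groups nearly touched (-0.22 ± 0.11, adjusted p = 0.137). Without RNA ESC replicate 3 the RNA change passed (-0.30 ± 0.07, adjusted p = 7.36e-05). The ribosome-bound change was -1.54 ± 0.23, adjusted p = 0.000152, and the ratio changed by -1.39 ± 0.25, adjusted p = 0.000501; without ribosome-bound ESC replicate 2 these were -1.35 and -1.17.

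SNRPD1 (SmD1) fell in RNA and not on ribosomes. Total RNA measured 100.1, 91.2 and 140.4 CPM in ESC and 64.5, 63.98 and 73.4 CPM in NPC, and ribosome-bound RNA 131, 125 and 123 CPM in ESC and 134, 129 and 135 CPM in NPC. The RNA fell (-0.72 ± 0.17, adjusted p = 0.00814) with no overlap of groups, while the ribosome-bound values overlapped (0.07 ± 0.17, adjusted p = 0.752), so that the ratio rose (0.72 ± 0.25, adjusted p = 0.0297). This ratio call was lost in 5 of 20 other fits. RNA ESC replicate 3 was the highest RNA library for SNRPD1. Without it the RNA change was -0.50 ± 0.07 (adjusted p = 5.60e-09) and the ratio changed by 0.49 ± 0.17 (adjusted p = 0.0284). SNRPF (SmF) was lower in both assays, with 72.1, 58.7 and 79.2 CPM in ESC and 40.6, 36.8 and 39.7 CPM in NPC in total RNA (-0.84 ± 0.13, adjusted p = 0.00118) and 90.2, 124 and 90.03 CPM in ESC and 63.8, 68.9 and 57.7 CPM in NPC on ribosomes (-0.67 ± 0.20, adjusted p = 0.0119). Its ratio did not pass (0.11 ± 0.25, adjusted p = 0.739).

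SNRPD3, SNRPE and SNRPG (SmD3, SmE, SmG) had few ribosome-bound counts for their RNA. Their log2 ratio of ribosome-bound to total CPM (0.5 added to each) was -3.47, -1.46 and -3.14 in ESC, while the other ring members SNRPB, SNRPD1, SNRPD2 and SNRPF lay between 0.19 and 1.72. Over the 6 ribosome-bound libraries they had 62, 241 and 119 counts. None of the 3 passed on ribosomes, with log2 fold changes of -1.17, -0.42 and 0.08. The listed symbols include 20 numbered pseudogenes of SNRPG and 9 of SNRPE, and the counting of reads with several matches is not stated, so these levels are uncertain; SNRPD3 has none listed.

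LSM2 to LSM8 form the nuclear ring on U6 snRNA, and LSM1 replaces LSM8 in the cytoplasmic ring that binds mRNAs during decay. In total RNA all 8 had negative fold changes with all libraries, where 8980 of all 18631 genes had them. LSM1, LSM3 and LSM5 fell (37.5%, against 26.2% of all genes). Without RNA ESC replicate 3 LSM8 was at 0.12 ± 0.09 (adjusted p = 0.241). LSM4 and LSM7 reached 0.01 and 0.02 in other fits. On ribosomes LSM1 and LSM3 fell (25%, against 30.3% of all genes). LSM1 measured 43.7, 61.2 and 59.8 CPM in ESC and 19.6, 16.5 and 13.4 CPM in NPC on ribosomes and 25.5, 25.8 and 26.5 CPM in ESC and 16.4, 18.6 and 20.3 CPM in NPC in total RNA. Neither pair of groups overlapped, and the ribosome-bound fall was the deeper one (-1.74 ± 0.23, adjusted p = 5.62e-05, against -0.49 ± 0.13, adjusted p = 0.0118). Its ratio fell as well (-1.32 ± 0.27, adjusted p = 0.00116). The ratio of LSM8 changed by -0.03 ± 0.28, adjusted p = 0.947, and the difference between these genes was not tested.

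LSM3 had 47.02, 54.03 and 59.7 CPM in ESC and 27.96, 33.1 and 33.01 CPM in NPC in total RNA and 42.4, 71.9 and 34.3 CPM in ESC and 28.2, 23.4 and 20.8 CPM in NPC on ribosomes. Groups were separate in both assays (-0.77 ± 0.13, adjusted p = 0.00181 and -1.03 ± 0.28, adjusted p = 0.00704), and the ratio did not pass (-0.31 ± 0.32, adjusted p = 0.451). LSM2, shared by both rings, had 69.7, 69.9 and 61.4 CPM in ESC and 64.9, 66.3 and 59.5 CPM in NPC in total RNA. On ribosomes it had 70.8, 91.3 and 61.9 CPM in ESC and 45.2, 70.6 and 65.6 CPM in NPC. It overlapped in both assays, with changes of -0.08 ± 0.11, adjusted p = 0.576 and -0.30 ± 0.23, adjusted p = 0.277. LSM4, LSM6, LSM7 and LSM8 did not pass in any comparison with all libraries, and LSM5 passed in total RNA only (-0.46 ± 0.13, adjusted p = 0.0172). Without ribosome-bound ESC replicate 2, LSM4 and LSM5 were higher on ribosomes (0.40 ± 0.14, adjusted p = 0.0128 and 0.46 ± 0.17, adjusted p = 0.0171). LSM7 was at 17.1 CPM in 1 ESC RNA library and at 5.36 CPM in replicate 3. Its RNA difference of -0.42 ± 0.36 became -0.76 ± 0.13, adjusted p = 7.76e-07 without that replicate, and that of LSM4 went from -0.16 ± 0.25 to -0.43 ± 0.07, adjusted p = 5.28e-08.

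The proteins specific to U1 and U2 held some of the deepest falls. Of 5 members, SNRPC, SNRPA1 and SNRPB2 fell in both assays, and SNRPA and SNRNP70 passed in neither. Of all tested genes 26.2% fell in RNA and 30.3% on ribosomes. SNRPC (U1-C), which helps U1 hold the 5′ splice site, had 203, 279 and 260.5 CPM in ESC and 76.3, 87.3 and 62.9 CPM in NPC on ribosomes. Its total RNA was 68.4, 80.6 and 47.1 CPM in ESC and 41.7, 40.1 and 37.2 CPM in NPC. All NPC values lay under all ESC values, with changes of -1.71 ± 0.22, adjusted p = 3.83e-05 on ribosomes, -0.72 ± 0.19, adjusted p = 0.0132 in RNA and -1.06 ± 0.27, adjusted p = 0.00591 for the ratio. There are 18 numbered SNRPC pseudogenes among the listed symbols, with 5 ribosome-bound counts in all against 3098 for SNRPC.

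SNRPB2 (U2-B″), which binds a stem-loop of U2 RNA with SNRPA1, had 164, 148 and 161 CPM in ESC and 32.1, 50.2 and 52.3 CPM in NPC on ribosomes. Its total RNA was 30.6, 34.7 and 44.6 CPM in ESC and 22.9, 22.7 and 25.6 CPM in NPC. The groups did not overlap in either assay. Ribosome-bound RNA was 3.51-fold lower (-1.81 ± 0.22, adjusted p = 3.06e-05), total RNA 1.54-fold lower (-0.62 ± 0.16, adjusted p = 0.0119) and the ratio lower by 2.38-fold (-1.25 ± 0.28, adjusted p = 0.00251). RNA ESC replicate 3 was the highest RNA library for SNRPB2. Without it the RNA change was -0.46 ± 0.09 (adjusted p = 5.11e-06) and the ratio changed by -1.43 ± 0.24 (adjusted p = 0.000270). SNRPA1 (U2-A′), its partner, fell on ribosomes by a log2 of 1.14 (adjusted p = 0.00192) and in RNA by 0.54 (adjusted p = 0.00426), and its ratio missed the threshold (-0.66 ± 0.27, adjusted p = 0.0620).

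SNRNP70 (U1-70K), which joins U1 to regulatory SR proteins, pointed upward without passing. It had 226, 139.5 and 225 CPM in ESC and 263, 294 and 306 CPM in NPC on ribosomes and 122, 126 and 83.04 CPM in ESC and 149, 135 and 132 CPM in NPC in total RNA. Every NPC value was above every ESC value in both assays, yet the tests gave 0.55 ± 0.23, adjusted p = 0.0534 and 0.33 ± 0.16, adjusted p = 0.125. The libraries that stood apart were the lowest ESC libraries in each assay, and without them the changes were 0.34 ± 0.14, adjusted p = 0.0295 and 0.16 ± 0.07, adjusted p = 0.0305. With all libraries SNRPA (U1-A) passed for the ratio only (-0.69 ± 0.23, adjusted p = 0.0268), and in 12 of 20 other fits.

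U2AF1 and U2AF2 recognise the AG and the pyrimidine tract of the 3′ splice site. U2AF1 had 1.58, 1.48 and 1.94 CPM in ESC and 1.91, 2.82 and 2.58 CPM in NPC in total RNA and 0 counts in all 6 ribosome-bound libraries, which allows up to 1.29 CPM in the shallowest. The RNA groups overlapped (0.56 ± 0.22, adjusted p = 0.0605, and 0.69 ± 0.24, adjusted p = 0.00948 without ESC replicate 3). A near-identical copy listed as U2AF1L5 had 473 and 753 summed RNA counts in ESC and NPC, where U2AF1 had 106 and 239, and the split of reads between these copies is uncertain. U2AF2 fell on ribosomes (-0.66 ± 0.24, adjusted p = 0.0298) and did not pass in RNA (-0.09 ± 0.25, adjusted p = 0.776), where it passed without RNA ESC replicate 3 (-0.35 ± 0.07, adjusted p = 5.49e-06). Its ribosome-bound call held in 6 of 12 other fits, and ESC replicate 2 was its lowest ESC library; without that library the change was -0.88 ± 0.14, adjusted p = 7.84e-07.

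SF3A and SF3B hold U2 on the branch point. In total RNA SF3A1, SF3A3 and SF3B4 fell and none rose. On ribosomes SF3B4, SF3B5 and SF3B6 fell and SF3A2 rose. The share of falls was 33.3% in each assay, against 26.2% of all genes in RNA and 30.3% on ribosomes. Rises were 11.1% on ribosomes, against 31.6% of all genes. SF3B5, the smallest SF3B subunit, had 279, 455 and 366 CPM in ESC and 105, 91.7 and 101 CPM in NPC on ribosomes. Its total RNA was 41.00, 51.7 and 12.05 CPM in ESC and 26.2, 28.7 and 27.5 CPM in NPC, and the third ESC value is that of the library that stood apart. Ribosome-bound groups were separate (-1.88 ± 0.23, adjusted p = 2.75e-05), while total RNA overlapped (-0.35 ± 0.43, adjusted p = 0.527). Without that RNA library the RNA change was -0.76 ± 0.08, adjusted p = 6.03e-12, and the ratio went from -1.62 ± 0.47, adjusted p = 0.0122 to -1.21 ± 0.26, adjusted p = 0.00172.

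SF3A2, which with SF3A1 and SF3A3 joins the U2 particle to SF3B, moved in the opposite direction. It had 289, 164 and 232 CPM in ESC and 606, 532 and 649 CPM in NPC on ribosomes. In total RNA it had 83.5, 98.6 and 40.8 CPM in ESC and 90.8, 86.8 and 77.3 CPM in NPC. Ribosome-bound groups did not overlap (2.61-fold higher, 1.38 ± 0.24, adjusted p = 0.000425), the RNA groups did (0.19 ± 0.28, adjusted p = 0.593), and the ratio rose (1.11 ± 0.37, adjusted p = 0.0237), a call lost in 3 of 20 other fits. Its partners SF3A1 and SF3A3 fell in total RNA (-0.54 ± 0.09, adjusted p = 0.00161 and -0.61 ± 0.10, adjusted p = 0.00128) and did not pass on ribosomes (0.16 and -0.15).

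SF3B1, the subunit that clamps the branch-point helix, had 624, 122 and 529 CPM in ESC and 315, 405 and 315 CPM in NPC on ribosomes. Total RNA was 325, 330.2 and 452 CPM in ESC and 358, 369.5 and 403 CPM in NPC. The groups overlapped in both, and the second ribosome-bound ESC value set the spread. The change on ribosomes was -0.30 ± 0.44, adjusted p = 0.566 with all libraries and -0.76 ± 0.15, adjusted p = 2.19e-05 without ESC replicate 2. In RNA it was 0.03 ± 0.14, adjusted p = 0.869 and, without RNA ESC replicate 3, 0.20 ± 0.06, adjusted p = 0.00472. On ribosomes SF3B3, a scaffold of the complex, behaved alike, with -0.39 ± 0.37, adjusted p = 0.385 and -0.79 ± 0.14, adjusted p = 5.79e-06, and so did SF3A3 at a smaller size (-0.43 ± 0.13, adjusted p = 0.00522 without the library). SF3B4 fell in RNA (-0.60 ± 0.13, adjusted p = 0.00636) and on ribosomes (-1.46 ± 0.33, adjusted p = 0.00228), where ESC replicate 2 was also its lowest ESC library. With all libraries SF3B6, which touches the branch point, fell on ribosomes only (-0.82 ± 0.23, adjusted p = 0.00853). Its ratio passed without RNA ESC replicate 3 (-0.87 ± 0.27, adjusted p = 0.0147). SF3B2 passed in no comparison with all libraries (-0.19, 0.48 and 0.59 for RNA, ribosome-bound RNA and ratio). Its RNA change was -0.34 ± 0.06, adjusted p = 6.85e-06 without RNA ESC replicate 3.

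**Figure D3:**
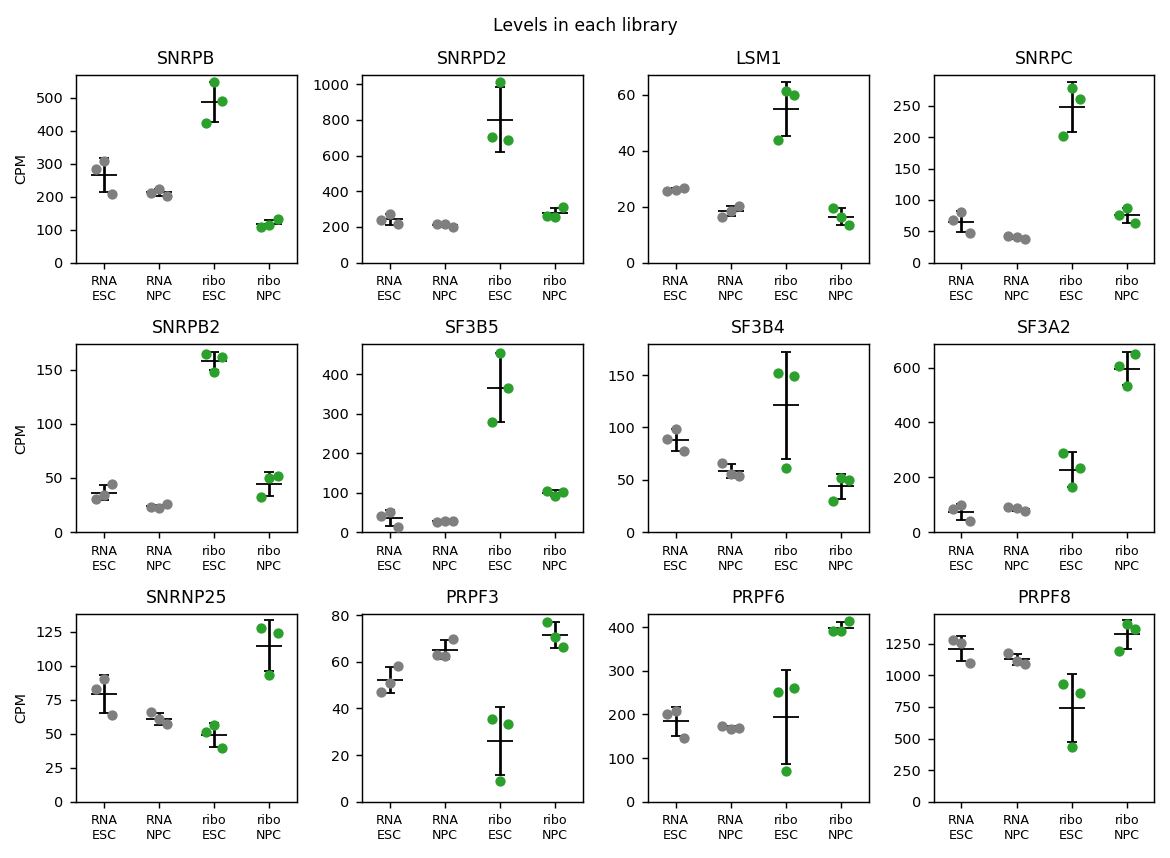
CPM in each library (points; vertical axis from 0, scaled per gene) for 12 members in total RNA (grey) and ribosome-bound RNA (green, labelled ribo), with the mean and SD of 3 libraries as a bar and whiskers. In the top row ribosome-bound levels are separate between ESC and NPC while total RNA is closer, as for SNRPB at 425 to 548 CPM against 109 to 131 CPM; for PRPF3, PRPF6 and PRPF8 1 ribosome-bound ESC library lies well under the others.

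The U5 and tri-snRNP proteins divided. SNRNP27, a tri-snRNP protein, had 15.6, 15.8 and 15.5 CPM in ESC and 19.6, 20.03 and 18.97 CPM in NPC in total RNA and 14.04, 18.5 and 19.02 CPM in ESC and 41.99, 25.7 and 38.7 CPM in NPC on ribosomes. NPC lay above ESC without overlap in both (0.32 ± 0.11, adjusted p = 0.0441 and 1.04 ± 0.25, adjusted p = 0.00329), although the RNA call was lost in 9 of 12 other fits, among them the replicate block (0.32 ± 0.14, adjusted p = 0.0775). SNRNP200, the helicase that unwinds U4 from U6, had 815, 772 and 699 CPM in ESC and 900.4, 911 and 894 CPM in NPC in total RNA. On ribosomes it had 481, 78.8 and 421 CPM in ESC and 617, 746 and 699.6 CPM in NPC. Groups were separate in each assay. The RNA rise was small (0.24 ± 0.09, adjusted p = 0.0463) and was also lost in 9 of 12 other fits (with the replicate block 0.25 ± 0.09, adjusted p = 0.0573), and the ribosome-bound difference missed the threshold (1.07 ± 0.47, adjusted p = 0.0682) with ESC replicate 2 far below; without that library it was 0.59 ± 0.15, adjusted p = 0.000673. SNRNP40, a U5 WD-repeat protein, fell on ribosomes (-0.72 ± 0.18, adjusted p = 0.00486) with little change in RNA (0.10 ± 0.09, adjusted p = 0.399), and its ratio fell (-0.88 ± 0.20, adjusted p = 0.00273).

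SNRNP25, SNRNP35 and SNRNP48 belong to the U11/U12 particle of the minor spliceosome, which removes a rare class of introns. SNRNP25 had 51.2, 56.4 and 39.7 CPM in ESC and 128, 93.1 and 124 CPM in NPC on ribosomes and 83.1, 90.6 and 63.5 CPM in ESC and 65.8, 60.8 and 56.9 CPM in NPC in total RNA. The ribosome-bound groups were separate with NPC higher (1.23 ± 0.21, adjusted p = 0.000401), while RNA missed the threshold (-0.37 ± 0.15, adjusted p = 0.0643). The RNA fall passed with the replicate block (-0.36 ± 0.12, adjusted p = 0.0389), with RLE scaling, with DESeq2 and without RNA ESC replicate 3 (-0.51 ± 0.07, adjusted p = 5.38e-09). Its ratio rose 2.90-fold (1.54 ± 0.26, adjusted p = 0.000254), the largest rise of any member. SNRNP35 showed the reverse, with 8.22, 8.73 and 6.64 CPM in ESC and 14.5, 13.3 and 11.8 CPM in NPC in total RNA and 15.3, 7.32 and 12.6 CPM in ESC and 7.69, 11.99 and 11.3 CPM in NPC on ribosomes. The RNA groups were separate (1.67-fold higher, 0.74 ± 0.16, adjusted p = 0.00552), the ribosome-bound groups overlapped (-0.20 ± 0.32, adjusted p = 0.606), and the ratio fell (-1.01 ± 0.35, adjusted p = 0.0306). It was the only one of the 4 RNA rises that held in all 12 other fits; the ratio call held in 12 of 20. SNRNP48 rose on ribosomes (0.74 ± 0.26, adjusted p = 0.0246), in 8 of 12 other fits, and in RNA it was -0.01 ± 0.24, adjusted p = 0.985 with all libraries and 0.34 ± 0.10, adjusted p = 0.00138 without RNA ESC replicate 3.

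Of the 13 PRPF members, PRPF3 rose and PRPF4B, PRPF31, PRPF38A and PRPF38B fell in total RNA. On ribosomes 4 rose, among them PRPF3, PRPF6 and PRPF8, and only PRPF19 fell. The falls in RNA (30.8%) were near the 26.2% of all genes, and the rises (7.69%) under the 26.4%. The rises on ribosomes (30.8%) were near the 31.6% of all genes, and the falls (7.69%) under the 30.3%. PRPF3, a U4/U6 protein, had 35.3, 9.04 and 33.2 CPM in ESC and 77.2, 70.6 and 66.5 CPM in NPC on ribosomes. In total RNA it had 47.1, 50.9 and 58.03 CPM in ESC and 63.04, 62.6 and 69.8 CPM in NPC. NPC was above ESC throughout, by 1.44 ± 0.36, adjusted p = 0.00412 on ribosomes and 0.32 ± 0.12, adjusted p = 0.0482 in RNA. The RNA call was lost in 8 of 12 other fits. Without ESC replicate 2, which was lowest, the ribosome-bound change was 1.04 ± 0.17, adjusted p = 1.20e-06.

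PRPF8, the scaffold of the catalytic centre, had 934, 435 and 860.1 CPM in ESC and 1196, 1409.6 and 1371 CPM in NPC on ribosomes. Total RNA was 1283, 1255 and 1101 CPM in ESC and 1178, 1113 and 1094 CPM in NPC. Its ribosome-bound groups were separate (0.83 ± 0.29, adjusted p = 0.0244) and its RNA groups overlapped (-0.10 ± 0.09, adjusted p = 0.361), with a ratio of 0.87 ± 0.33, adjusted p = 0.0443 that was lost in 7 of 20 other fits. The ribosome-bound call was lost without NPC replicate 2 or without NPC replicate 3, and the RNA change was -0.17 ± 0.06, adjusted p = 0.0145 without RNA ESC replicate 3. PRPF6, which bridges U5 and U4/U6, changed by 1.04 ± 0.38, adjusted p = 0.0310 on ribosomes and by 0.63 ± 0.14, adjusted p = 0.000147 without ESC replicate 2; the call with all libraries was lost when any 1 of the NPC libraries was left out. In RNA it was -0.12 ± 0.14, adjusted p = 0.489 and, without RNA ESC replicate 3, -0.26 ± 0.06, adjusted p = 0.000232. The ratio also rose for PRPF31 (0.68 ± 0.26, adjusted p = 0.0443), which joins U4/U6 to U5, and for PRPF38A (0.63 ± 0.22, adjusted p = 0.0330), a factor of spliceosome activation; both had fallen in RNA (-0.56 ± 0.13 and -0.44 ± 0.10) and did not pass on ribosomes. These ratio calls were lost in 12 and 7 of 20 other fits. PRPF19, a ubiquitin ligase of the active spliceosome, fell on ribosomes (-0.81 ± 0.21, adjusted p = 0.00518), and in RNA it was -0.33 ± 0.15, adjusted p = 0.0953 with all libraries and -0.48 ± 0.06, adjusted p = 1.53e-09 without RNA ESC replicate 3. PRPF4B, a kinase of the tri-snRNP, and PRPF38B fell in RNA (-0.41 ± 0.14, adjusted p = 0.0387 and -0.48 ± 0.15, adjusted p = 0.0278) and did not pass on ribosomes (0.58 and 0.20). Their RNA calls were lost in 5 and 3 of 12 other fits. PRPF4, PRPF18, PRPF39 and PRPF40B passed in no comparison with the main test, and PRPF18 had only 77 ribosome-bound counts in all. The ratio of PRPF4 (-0.39 ± 0.22, adjusted p = 0.157) was called lower in 2 of 20 other fits. These were DESeq2 and the fit without both libraries that stood apart.

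Set side by side, the small ring genes changed by a median log2 of -0.42 in total RNA (0 of 15 higher, 7 lower) and the SF3 and PRPF genes by -0.22 (1 of 22 higher, 7 lower). On ribosomes the medians were -0.42 (0 higher, 5 lower) and 0.19 (5 higher, 4 lower), and for the ratio -0.22 (1 higher, 3 lower) and 0.49 (5 higher, 1 lower). All tested genes had medians of 0.03, -0.01 and -0.07. Called higher and lower were 26.4% and 26.2% of them in RNA, 31.6% and 30.3% on ribosomes, 22.6% and 19.7% for the ratio. For the SF3 and PRPF genes these shares were 22.7% and 18.2% on ribosomes and 22.7% and 4.55% for the ratio. For the small ring genes they were 0% and 33.3%, and 6.67% and 20%. Rises of SF3 and PRPF genes were thus under the share of all genes on ribosomes and near it for the ratio. The small minus large difference was -0.20 in RNA, -0.61 on ribosomes and -0.71 for the ratio. Without ribosome-bound ESC replicate 2 the difference was -0.17 on ribosomes, from medians of -0.14 (2 higher, 5 lower) and 0.03 (5 higher, 7 lower), and -0.31 for the ratio, where the small median turned to 0.06. For the ratio, the SF3 and PRPF genes then had 8 higher and 5 lower calls. Leaving out each library in turn gave 1 to 9 higher calls. Without ribosome-bound ESC replicate 2, 34.8% and 33.3% of all genes were higher and lower on ribosomes and 24.1% and 19.9% for the ratio. Most of the small minus large difference on ribosomes therefore rested on that replicate. Within the SF3 family SF3B5 and SF3B6 are short and were both lower on ribosomes. Leaving them out of the large class gave a ribosome-bound median of 0.20 and a ratio median of 0.60. This alternative was not planned and drops only short members that were lower on ribosomes. PRPF18 and PRPF38A are short as well and stayed in the large class, with ribosome-bound changes of 0.31 and 0.26.

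The level of the ratio was also compared between the classes. In ESC the median log2 ratio of ribosome-bound to total CPM was 0.87 for the small and 0.04 for the SF3 and PRPF genes, and in NPC it was 0.40 for both, with all tested genes at -0.38 and -0.24. Members spanned -3.47 (SNRPD3) to 3.37 (SF3B5) in ESC. The ESC values hold the library that stood apart.

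**Figure D4:**
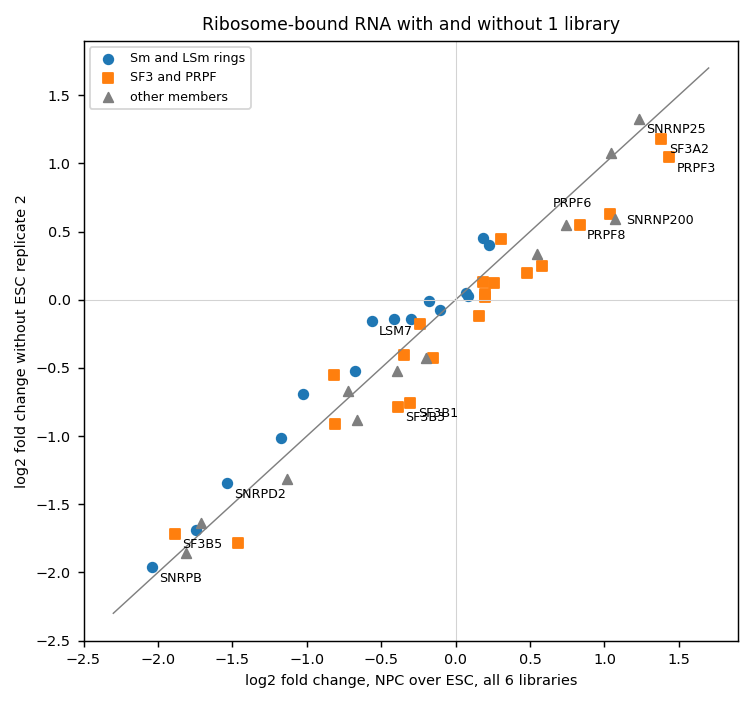
Log2 fold change of NPC over ESC in ribosome-bound RNA for 48 members with all 6 libraries (horizontal axis) and without ESC replicate 2 (vertical axis), with the line of equal values. Most small ring genes (circles) lie above the line and most SF3 and PRPF genes (squares) below it, as SF3B1 at -0.30 and -0.76; error bars are left out.

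Other spliceosome genes were described from lists beyond the members. Among 25 other snRNP-associated genes, 3 rose and 5 fell in total RNA, 8 rose and 5 fell on ribosomes, and the ratio rose for 8 and fell for 4. The shares of all genes called higher and lower were 26.4% and 26.2% in RNA, 31.6% and 30.3% on ribosomes and 22.6% and 19.7% for the ratio. ZRSR2, a U2AF1-related factor of minor introns, rose most on ribosomes (1.64 ± 0.26, adjusted p = 0.000192), followed by LUC7L3, a U1-associated protein (1.61 ± 0.22, adjusted p = 6.20e-05). PHF5A, an SF3B subunit that the symbol rule leaves out, fell with SF3B4, SF3B5 and SF3B6 (-1.54 ± 0.29, adjusted p = 0.000674), and PUF60, a U2AF2-related factor, fell as well (-1.28 ± 0.19, adjusted p = 0.000122). SNRPN, the tissue-restricted relative of SNRPB, fell in RNA (-0.57 ± 0.16, adjusted p = 0.0185) and had a higher ratio (1.01 ± 0.29, adjusted p = 0.0125). Of 24 tested genes of the PRPF19 complex and the catalytic spliceosome 9 rose and 5 fell on ribosomes, against the same shares, led by SLU7, a second-step factor (2.04 ± 0.22, adjusted p = 1.18e-05), and CWC22, which deposits exon junction complexes (1.87 ± 0.30, adjusted p = 0.000240). DHX15, the helicase that disassembles the spliceosome, fell most (-2.05 ± 0.34, adjusted p = 0.000309), next to PPIL1 (-1.98 ± 0.23, adjusted p = 2.12e-05). Ribosome-bound ESC replicate 2 was the lowest ESC library for CWC22 (43.4, 15.1 and 34.0 CPM) and for DHX15 (904, 319 and 832 CPM). It enlarges the rise of CWC22 and lessens the fall of DHX15. For PHF5A (68.0, 119 and 71.0 CPM) and PPIL1 (112, 172 and 141 CPM) it was the highest ESC library and enlarges the falls.

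Of the genes that assemble snRNPs, 1 was higher and 8 lower of 21 in RNA (26.4% and 26.2% of all genes), and 2 were higher and 8 lower of 18 on ribosomes (31.6% and 30.3%), with no test of the difference from other genes. WDR77, the partner of the methyltransferase that modifies Sm tails, had 130.4, 134 and 146 CPM in ESC and 20.5, 31.8 and 29.4 CPM in NPC on ribosomes. GEMIN6, a Sm-like subunit of the SMN complex, had 65.2, 66.8 and 64.3 CPM in ESC and 12.8, 17.6 and 14.3 CPM in NPC. Both sets of groups were wide apart, with -2.32 ± 0.21, adjusted p = 4.23e-06 for WDR77 and -2.13 ± 0.20, adjusted p = 5.49e-06 for GEMIN6, and total RNA fell for WDR77 (-0.91 ± 0.11, adjusted p = 0.000277) and did not pass for GEMIN6 (-0.27 ± 0.13, adjusted p = 0.117). LARP7, which guides U6 modification, rose on ribosomes (1.86 ± 0.25, adjusted p = 6.41e-05), and so did SART3, a U6 recycling factor (0.93 ± 0.26, adjusted p = 0.00850). ESC replicate 2 was the lowest ribosome-bound ESC library for both and enlarges these rises. ESC values were 38.1, 18.5 and 30.3 CPM for LARP7 and 134, 62.9 and 122 CPM for SART3.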

How the data were processed

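The authors deposited whole-number counts for each gene, in a single table of 59050 symbols with a column for each of 12 libraries, each matched to a sample by its title. Tools in the submitters' processing notes are STAR 2.7.1a, featureCounts 1.6.4, Bowtie 1.2 and cutadapt 1.18, with builds hg38 and GRCh38. Their roles, the annotation, the use of strand, the counting of reads with several matches and the way ribosomes were isolated were not stated there or in the labels, so genes with copies are uncertain. The rule for members takes in symbols only, but it and the lists were proposed with earlier results of these data known.

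Each assay was fitted on its own with edgeR 4.0.16 in R 4.3.3 (TMM scaling, filterByExpr, quasi-likelihood F test, adjustment over all genes tested, threshold 0.05), and the ratio as the interaction of assay and state over 12 libraries, on genes passing in both assays. Every adjusted p is from these fits. CPM uses TMM-scaled library sizes within an assay. Standard errors are the fold change divided by the square root of F. Other fits used RLE and upper-quartile scaling, no filter, DESeq2 1.42.0, limma-voom (limma 3.58.1), a replicate block and each library left out. The fits were also run on simulated counts with known changes. Those counts had the same spread for every gene and no library that stands apart, so they cannot show how such libraries affect the calls. Same-numbered RNA libraries of ESC and NPC deviated together (r = 0.369, 0.250 and 0.584). ESC replicate 2 deviated more closely with an NPC library of another number, and the highest r belongs to replicate 3, whose ESC library stood apart. A pairing is therefore uncertain, and the numbers enter only the fits with a replicate block. Values per library are printed for up to 5 rises and 5 falls per comparison past the threshold and for SNRPB, SNRPD1, LSM2, SF3B1, SF3B5, PRPF8, SNRNP200, SNRNP70 and U2AF1; from each other list up to 2 rises and 2 falls per comparison could be named. Protein lengths were not used here, so the planned bins by length and levels per codon were not computed, and CPM levels are not compared between genes, only the ribosome-bound over total ratio formed within each gene. The values of 1 member are not reported here on their own; it stays in counts and medians and is left out of the plots of single genes. Figures were drawn with Python 3.11.15, pandas 2.3.3, numpy 2.4.6 and matplotlib 3.10.9.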

Additional observations from a re-analysis of the deposited data

How the results depend on the processing

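Members higher in total RNA numbered 1 with RLE scaling, without a filter and with DESeq2, 2 with the replicate block and 1 to 9 when single libraries were left out, against 4; the 9 came without ESC replicate 3, and leaving out any other RNA library gave 1 or 2. Members lower numbered 12 to 28, the 28 again without ESC replicate 3. The small median in total RNA was -0.37 with upper-quartile scaling, -0.31 with limma-voom, -0.30 with the replicate block and -0.48 to -0.29 by library. The large median was -0.15 with limma-voom, -0.16 with the replicate block and -0.25 to -0.13 by library. Without SF3B5 and SF3B6, which was not planned, it was -0.15.

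On ribosomes members higher numbered 5 to 12 by library, the 5 without NPC replicate 2 and the 12 without ESC replicate 2. For the ratio, higher calls numbered 3 to 11 and lower calls 7 to 15 by library, and 16 and 17 without both libraries that stood apart, an alternative chosen after seeing the data. Higher calls were 3 without any 1 RNA NPC library, 4 without RNA ESC replicate 1, RNA ESC replicate 2 or ribosome-bound NPC replicate 3, and 11 without ribosome-bound ESC replicate 1 or 2. The ratio's small median ran from -0.31 to 0.06, the latter without ribosome-bound ESC replicate 2.

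Pairing by replicate number was not seen on ribosomes, where same-numbered ESC and NPC libraries deviated with r = -0.160, -0.253 and -0.01. With the replicate block 7 members were higher and 13 lower there, and for the ratio 8 and 9; nested in state the ratio gave 8 and 7. No called value changed sign in any fit that was run. In total RNA the calls of LSM1, LSM5 and SNRPB2 were lost in 2 of 12 other fits and that of SNRPC in 1, and on ribosomes that of SNRPF in 2. Depth limits SNRPD3, SNRPG and PRPF18 on ribosomes, each with under 120 counts over 6 libraries.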

Other observations

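Genes of the cytoplasmic mRNA decay machinery and Sm-like proteins outside the symbol rule were taken as a list of 11. Of 9 tested on ribosomes, 4 were higher and 2 lower in NPC, against 31.6% and 30.3% of all genes. LSM14A, a Sm-like protein of P-bodies, had 74.9, 72.4 and 81.99 CPM in ESC and 331, 311 and 271 CPM in NPC on ribosomes and 135, 138 and 172 CPM in ESC and 147, 157 and 161 CPM in NPC in total RNA. The ribosome-bound groups were wide apart (1.99 ± 0.19, adjusted p = 6.22e-06) and those of total RNA overlapped (0.06 ± 0.12, adjusted p = 0.674). DCP1A, an activator of decapping, rose in RNA (0.78 ± 0.10, adjusted p = 0.000337) and on ribosomes (1.69 ± 0.23, adjusted p = 5.99e-05), and so did XRN1, the exonuclease that follows decapping (0.86 ± 0.17, adjusted p = 0.00394 and 1.45 ± 0.31, adjusted p = 0.00166). XRN1 had 16.5, 5.60 and 13.7 CPM in ESC on ribosomes, with replicate 2 the lowest. PATL1, which binds the LSM1 to LSM7 ring, fell in RNA (-0.46 ± 0.10, adjusted p = 0.00594) and rose on ribosomes (0.84 ± 0.19, adjusted p = 0.00257). NAA38, a Sm-like subunit of an acetyltransferase, fell on ribosomes (-1.41 ± 0.28, adjusted p = 0.000925). Its ribosome-bound ESC values were 149, 302 and 156 CPM, with replicate 2 the highest, which enlarges the fall.

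Regulators of splicing were counted in the same way. In total RNA, of 12 SR genes 3 were higher and 8 lower, and of 21 tested hnRNP genes 1 was higher and 10 lower, against 26.4% and 26.2% of all genes. On ribosomes 4 of 11 SR genes rose and 4 fell, and 3 of 20 hnRNP genes rose and 10 fell, against 31.6% and 30.3% of all genes, with medians of 0.26 and -0.62; the hnRNP genes were also the ones that lay low in ribosome-bound ESC replicate 2.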
